A study of Mus musculus with 16 samples.

Results

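Macrophages grown from mouse bone marrow were compared between fibronectin-coated dishes and normal culture dishes, with control IgG in the medium of both. The comparison used every gene that passed a filter on low counts, which was 15469 of the 54532 genes in the deposited table, in 8 of the study's 16 RNA libraries. The marrow came from the tibia of wild-type C57BL/6 mice aged 2 to 3 months. CSF-1, the growth factor that drives macrophage differentiation, was given at 12 ng/ml for 24 h and at 120 ng/ml for a further 48 h, in medium with 15% serum. After a single passage onto dishes precoated with 10 µg/ml fibronectin (the fibronectin group) or onto normal dishes (the uncoated group), confluent cells received 10 µg/ml IgG for 24 h. Each group had 4 libraries. The other 8 libraries had the same coatings. In place of IgG they had, at the same concentration, a neutralizing antibody to the αV subunit of integrins (anti-ITGAV). They entered the filter, the scaling and the shared estimate of spread of the main tests. Their own levels are used below only where the coating difference is read again.

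Fibronectin is a dimeric glycoprotein of the extracellular matrix and of plasma, and cells bind it mainly through integrins, above all α5β1 and the αV family. Integrins that bind matrix cluster into focal adhesions or, in macrophages, podosomes, and pass signals to focal adhesion kinases, the ERK pathway and NF-kB. Serum contains fibronectin that adsorbs to culture plastic, so the normal dishes may not have been free of it, which no value here measures. In tissue, macrophages meet fibronectin in wounds, infarcts and tumours, and they also make it.

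Total counts per library ran from 27995035 to 43413650. Where a library has no read of a gene, up to 3 counts, that is 0.0691 to 0.107 CPM (counts of a gene scaled to a common library total, with totals adjusted by TMM), are within counting error. The cells matched their label: the 22 macrophage identity genes (such as Csf1r, Adgre1 and Lyz2) had a median of 636 CPM, and they took 58500 to 64800 CPM in all in the uncoated libraries and 53500 to 68600 CPM in the fibronectin libraries. Of these 22 genes 1 was called, Mertk, which was lower on fibronectin; with the GC offset described below 2 were called higher and 6 lower. Whether replicates are separate cultures or animals is not stated in the labels, so the p-values speak to the spread among these libraries, possibly a technical one. In bulk RNA, fewer cells of a type and less RNA per cell cannot be told apart. Changes are log2 changes of fibronectin against uncoated, with edgeR's standard error (SE), and a gene is called where edgeR's quasi-likelihood test gave a Benjamini-Hochberg adjusted p under 0.05 over all genes tested.

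On fibronectin, called genes of chemoattraction, urokinase and matrix degradation, ERK feedback, the cell cycle and ribosome production were mostly higher. Called genes of resident and alternatively activated macrophages, of cholesterol export and of the Ms4a and Clec4 receptor clusters were mostly lower. Of the genes tested 367 were called higher on fibronectin (2.37%) and 219 lower (1.42%), together 586 (3.79%). The counts of calls in each gene list below are to be read beside these shares. Most changes were small: the median log2 change was 0.60 in the genes called higher and -0.60 in those called lower, and 59 genes rose at least 2-fold (0.381%) while 27 fell as far (0.175%). The median over all genes tested was 0.002. Of the genes called higher 360 had no overlap between the 4 libraries of each group, and of those called lower 215; among all genes tested 1220 (7.89%) lay higher without overlap and 813 (5.26%) lower. The count of calls rested on single libraries. It was 253, 273 and 282 without uncoated library 1, 2 or 3, and 279 and 320 without fibronectin library 3 or 4. Without the third library of fibronectin with anti-ITGAV it was 1325. That library enters only through the filter, the scaling and the shared estimate of spread. In that last library mitochondrial transcripts took 3.67% of counts, against 1.30 to 1.6% in the others.

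**Figure D1:**
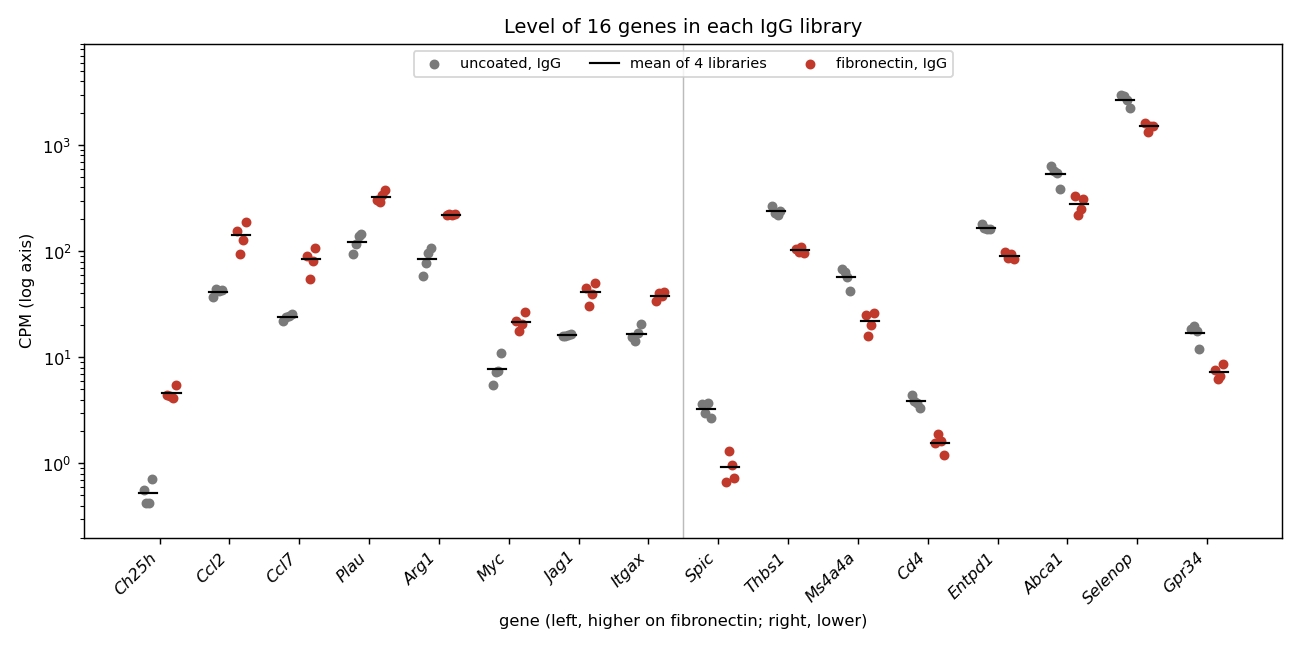
Level of 16 genes in each IgG library, in CPM on a log axis, with uncoated libraries in grey, fibronectin libraries in red and a black line at the mean of 4. The 8 genes on the left were higher on fibronectin and the 8 on the right lower, and in none of the 16 do the groups overlap.

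Ch25h, the enzyme that adds a hydroxyl group to cholesterol to make 25-hydroxycholesterol, had the largest rise among the genes named here. It lies on chromosome 19 (34473786 to 34475135, minus strand, GRCm38). Its level was 0.564, 0.421, 0.424 and 0.711 CPM in the uncoated libraries and 4.38, 4.32, 4.11 and 5.46 CPM in the fibronectin libraries. Every fibronectin library thus lay far above every uncoated one, and the log2 change was 3.08 ± 0.29 (SE, edgeR adjusted p = 2.03e-05). A noncoding gene on the opposite strand, Gm26902, overlaps it at 0.711 CPM (log2 change 1.35, not called), and as the strand setting of the counting is not given, reads of the pair cannot be told apart. Ch25h remained a low transcript: its mean FPKM (fragments per kilobase of transcript, scaled to library size) rose from 0.388 to 3.31. Because it rose most, the 250 bases before its start are printed here (RefSeq, GRCm38.p6, chr19:34475149-34475398, minus strand, read 5′ to 3′), with capitals marking the cAMP response element TGACGTCA and the sequence TATAAA, each searched on both strands.

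Ch25h: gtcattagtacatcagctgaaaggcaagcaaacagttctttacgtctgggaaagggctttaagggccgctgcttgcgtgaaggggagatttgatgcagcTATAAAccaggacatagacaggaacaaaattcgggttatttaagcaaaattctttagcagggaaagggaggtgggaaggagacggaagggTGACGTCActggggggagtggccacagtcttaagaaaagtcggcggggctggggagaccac

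In windows of 300 bases around the start (250 before and 50 after) of 9726 tested protein-coding genes, TGACGTCA occurs in 2.76% and TATAAA in 6.44%. These matches describe the letters of the window only.

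Besides Ch25h, the called genes of the list of 25-hydroxycholesterol and LXR, the nuclear receptor of oxysterols, were lower. Of 16 tested, Ch25h was called higher and 5 lower, with a median of -0.13 over the list. Abca1, the pump that loads cholesterol onto apolipoproteins, stood at 634, 567, 542 and 390 CPM in the uncoated libraries and 334, 222, 251 and 313 CPM on fibronectin. The groups did not overlap, the lowest uncoated value being that of library 4, and the log2 change was -0.93 ± 0.19 (SE, edgeR adjusted p = 0.00953). Cyp27a1, which makes 27-hydroxycholesterol, fell from 52.7 ± 6.37 to 32.6 ± 3.24 CPM (SD, n = 4), a log2 change of -0.69. Abca9, a transporter of the same superfamily as Abca1, had a log2 change of -0.80, and Mylip, which marks the LDL receptor for degradation, -0.37. Abcg1, another cholesterol pump, was named after its values were seen and had a log2 change of -0.52. The call of Abca9 was lost without uncoated library 1 or fibronectin library 3 (edgeR adjusted p = 0.0591 to 0.061). That of Mylip was lost without any 1 of 5 libraries (0.0566 to 0.0809) and that of Abcg1 without any 1 of 8 (0.0503 to 0.122). The genes of sterol synthesis did not follow: of 23 tested edgeR called 0 and DESeq2 2, and the unadjusted p was under 0.05 for 4, and their median was -0.01.

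Chemokines were among the genes with the largest rises. Ccl2, the main attractant of CCR2-bearing monocytes, stood at 37.3, 44.1, 42.3 and 42.7 CPM in the uncoated libraries. On fibronectin it stood at 155, 93.3, 129 and 187 CPM. Fibronectin library 2 was the lowest of its group and still above all uncoated libraries by more than the whole uncoated range, and the log2 change was 1.76 ± 0.17 (SE, edgeR adjusted p = 2.41e-05). Ccl7, which binds the same receptor, ran in step, from 22.0 to 25.7 CPM without coating and at 91.0, 54.8, 81.4 and 108 CPM with it, a log2 change of 1.80 ± 0.20. Ccl12, the next tested Ccl gene along chromosome 11, had a log2 change of 1.32 ± 0.26. Ccl11 did not pass the count filter, so it is missing from this order. Ccl8, the tested Ccl gene after Ccl12 (82115185 to 82116799), did not join them. Its mean was 1.5 CPM uncoated and 1.43 CPM on fibronectin, a log2 change of -0.06 (edgeR adjusted p = 0.975). In FPKM, Ccl2 rose from a mean of 36.1 to 121 and Ccl7 from 29.6 to 102, while Ccl12 rose from 9.16 to 22.7. Ccl4, an inflammatory chemokine, rose from 8.93 ± 0.81 to 18 ± 1.43 CPM (SD, n = 4), and Cxcl14, which is made by many epithelia and macrophages, had a log2 change of 0.64.

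Over the 21 chemokine ligands tested, 5 were called higher (23.8%) and 1 lower (4.76%), with a median of 0.35. The member called lower was Pf4, a platelet-type chemokine that these cells made at a mean of 782 FPKM uncoated and 601 FPKM on fibronectin. Its log2 change of -0.37 was lost without any 1 of 5 libraries (edgeR adjusted p = 0.0531 to 0.0722). The promoters were searched for a kB motif (3 G, any 2 bases, 2 T, any 1 base, 2 C, on either strand). It occurs in 40.0% of 15 chemokine promoters with an entry in RefSeq, against 4.55% of all 9726 promoters. Among called genes with an entry it occurs in 5.35% of the 299 higher and 3.61% of the 166 lower. With T at the free base before the 2 C, the shares are 26.7% of the 15 and 1.39% of all promoters. They are then 0.669% of the 299 and 2.41% of the 166. Ccl2, Ccl7 and Ccl4 have no entry and are not among the 15. Chemokine receptors were mixed: of 14 tested 2 were called higher and 1 lower. C5ar1, the receptor of complement fragment C5a, stood at 443, 410, 451 and 514 CPM uncoated and 674, 784, 721 and 699 CPM on fibronectin, without overlap (log2 0.66 ± 0.09, edgeR adjusted p = 0.000609). Cx3cr1, the fractalkine receptor, had a log2 change of 0.84. Cxcr4 had one of -0.62, not called without any 1 of 6 libraries (0.053 to 0.118). The Cx3cr1 gene overlaps 4 others in the table, among them Wdr48 and Gorasp1, and the strand setting of the counting is not given, so reads of overlapping genes cannot be told apart.

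Tumour necrosis factor rose, as did an interleukin-1 antagonist gene and an NF-kB inhibitor gene. Tnf stood at 4.33, 4.52, 4.59 and 4.06 CPM uncoated and at 10.1, 11.7, 10.1 and 10.1 CPM on fibronectin. All 4 fibronectin libraries were above every uncoated one, and the log2 change was 1.26 ± 0.16 (SE, edgeR adjusted p = 0.000256). Il1rn, the antagonist of the interleukin-1 receptor, had a log2 change of 0.87 and was lost without uncoated library 2 (edgeR adjusted p = 0.054). Tnfaip3, which encodes the NF-kB inhibitor A20, had one of 0.62. Of 16 tested cytokines 3 were called higher and 2 lower, with a median of -0.24. Of 24 NF-kB feedback genes and targets 3 were higher and 1 lower, with a median of -0.01, near that of all genes. The 34 genes of the type I interferon response had a median of -0.12. Of these edgeR called 0, DESeq2 called 1 lower, and 5 had an unadjusted p under 0.05.

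Urokinase and its receptor rose together. Plau, the serine protease that activates plasmin at the cell surface, stood at 93.4, 117, 139 and 145 CPM in the uncoated libraries and 305, 293, 336 and 377 CPM on fibronectin. The lowest fibronectin value was above the highest uncoated one by more than the spread within either group (log2 1.40 ± 0.16, edgeR adjusted p = 8.72e-05). Plaur, the receptor that holds urokinase on the membrane, went from 18.3 to 21.4 CPM uncoated to 41.2 to 45.3 CPM on fibronectin (log2 1.12 ± 0.14). Mmp12, macrophage elastase, stood at 264, 257, 326 and 221 CPM uncoated and 530, 381, 438 and 663 CPM on fibronectin, again without overlap (log2 0.91 ± 0.18). Adam8, a membrane metalloprotease, had a log2 change of 0.68, lost without uncoated library 1, 2 or 3 (edgeR adjusted p = 0.0505 to 0.0655). Of the 20 proteases and inhibitors tested these 4 were called higher and none lower, with a median of 0.08, so the rise was in these members and not in most of the list.

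Among matrix proteins the direction was split. Thbs1, which encodes thrombospondin-1, an adhesive glycoprotein that activates latent TGF-β, fell from 265, 228, 219 and 239 CPM uncoated to 105, 99.3, 110 and 96.2 CPM on fibronectin. No library of one group came near the other, and the change was -1.21 ± 0.10 on the log2 scale (SE, edgeR adjusted p = 2.03e-05). Fn1, the gene of fibronectin itself, moved the other way: 293, 281, 332 and 393 CPM uncoated and 491, 539, 505 and 517 CPM on fibronectin. No uncoated library reached the lowest fibronectin library (log2 0.66 ± 0.11, edgeR adjusted p = 0.00312). Spp1, osteopontin, was the most abundant of the called genes, at a mean of 987 FPKM uncoated and 1530 FPKM on fibronectin. Its log2 change of 0.65 had an edgeR adjusted p of 0.0467 and was not called without any 1 of 12 of the 16 libraries (0.055 to 0.17). Of 22 matrix genes tested 3 were called higher and 2 lower; the other 2 were Emilin2 (0.51, lost without any 1 of 7 libraries, 0.0515 to 0.122) and Col3a1, described with the stromal markers below.

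A few genes of proteoglycan sulfation and core proteins rose. Chst11, a chondroitin sulfotransferase, stood at 3.62, 4.47, 4.13 and 5.39 CPM uncoated and at 10.3, 11.2, 13.9 and 14.6 CPM on fibronectin, with no overlap (log2 1.51 ± 0.15, edgeR adjusted p = 2.50e-05). Chst3, which sulfates chondroitin at another carbon, went from 4.97 ± 1.07 to 9.87 ± 0.93 CPM (SD, n = 4, log2 0.98). Cspg4, a large membrane proteoglycan with chondroitin sulfate chains, rose from 1.02 ± 0.50 to 3.82 ± 1.09 CPM, log2 1.91. Of 21 genes of glycosaminoglycan and proteoglycan synthesis 4 were called higher and none lower, with a median of 0.13.

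Of the integrin subunits 2 were called higher and none lower, of 18 tested, with a median of 0.05. Itgax, the αX subunit (CD11c) of complement receptor 4, stood at 15.4, 14.3, 16.8 and 20.4 CPM uncoated and 33.7, 40.4, 37.6 and 41.3 CPM on fibronectin. The rise was among those with the smallest p-values of the comparison (log2 1.19 ± 0.12, edgeR adjusted p = 2.41e-05). Itga5, the α subunit of the classical fibronectin receptor, stood at 82.5, 72.3, 75.1 and 88.1 CPM uncoated and 118, 126, 121 and 116 CPM on fibronectin. Although these libraries did not overlap, its log2 change of 0.60 had an edgeR adjusted p of 0.0475 and was not called without any 1 of 13 of the 16 libraries (0.0509 to 0.171). Itgav itself stood at 104, 105, 110 and 83.2 CPM uncoated and 178, 102, 121 and 176 CPM on fibronectin. Fibronectin libraries 1 and 4 were high and library 2 lay within the uncoated range, and the change of 0.52 ± 0.16 was not called (edgeR adjusted p = 0.0818). The β subunits that pair with αV were not called, with log2 changes of -0.02 for Itgb1, -0.25 for Itgb3 and 0.05 for Itgb5; the signs of Itgb1 and Itgb5 turned with the GC offset described below.

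The cytoskeletal genes that adhesions connect to had small changes, upward in those called. Of 30 focal adhesion and actin genes 3 were called higher (10.0%, against 2.37% of all genes tested) and none lower. The median was 0.08, and 21 lay above 0. In all they took 14000 to 15700 CPM uncoated and 16600 to 18700 CPM on fibronectin. With the GC offset described below 6 were called higher and 2 lower. Ptk2b, which encodes PYK2, the focal adhesion kinase family member of macrophages, had a log2 change of 0.45 ± 0.08. Flna, the actin crosslinker filamin A, had one of 0.48, lost without uncoated library 1, 2 or 3 (edgeR adjusted p = 0.0527 to 0.0585). Actn1, α-actinin, had one of 0.37, lost without any 1 of 12 libraries (0.0594 to 0.194). Myo1e, an unconventional myosin of the cell cortex, stood at 77.5, 77.9, 88.8 and 95.1 CPM uncoated and 131, 143, 143 and 141 CPM on fibronectin, without overlap (log2 0.72 ± 0.08, edgeR adjusted p = 0.00013). Of 13 targets of YAP and SRF, the transcription factors most tied to adhesion and actin tension, edgeR and DESeq2 called 0 and 1 had an unadjusted p under 0.05, with a median of 0.11.

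**Figure D2:**
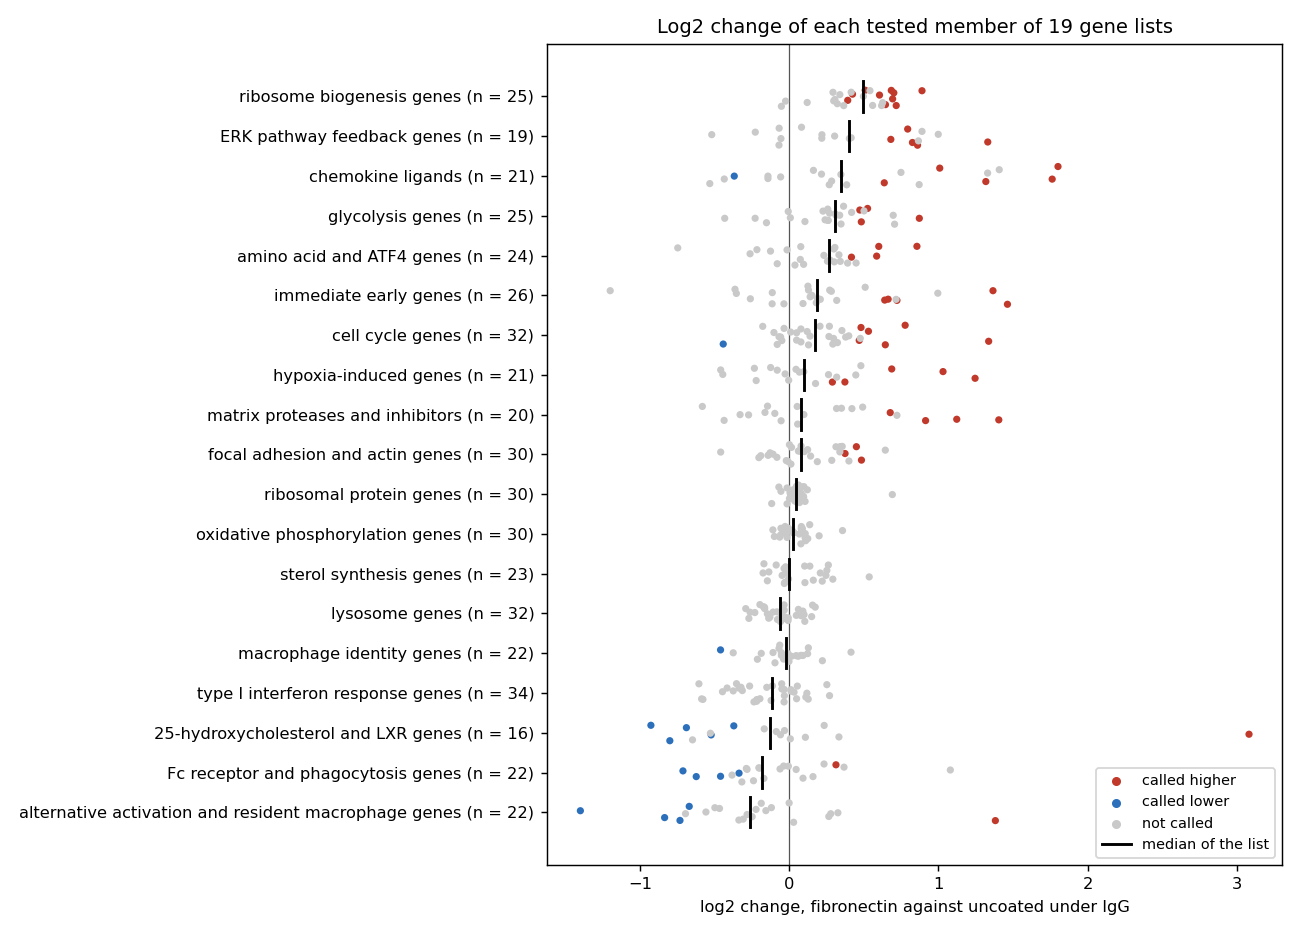
Log2 change of each tested member of 19 gene lists, fibronectin against uncoated under IgG, with members called higher in red, called lower in blue and not called in grey, and a black bar at each list's median. Ribosome biogenesis genes have the highest median of the lists drawn (0.50) and alternative activation and resident macrophage genes the lowest (-0.27).

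Among the cell cycle genes called, all but 1 were higher, and Myc was higher as well. Myc, the transcription factor of growth, stood at 5.46, 7.31, 7.45 and 11 CPM uncoated and 21.8, 17.7, 20.4 and 26.5 CPM on fibronectin. The groups were well apart, and the log2 change was 1.46 ± 0.20 (SE, edgeR adjusted p = 0.000521). Ccnd1, cyclin D1, which drives entry into the cell cycle, stood at 134, 155, 167 and 200 CPM uncoated and 388, 423, 427 and 421 CPM on fibronectin, about as large a change (1.34 ± 0.13, edgeR adjusted p = 2.50e-05). Ccnd2 and Ccne1, the cyclins D2 and E1, had log2 changes of 0.78 and 0.64. Of 32 cell cycle genes 6 were called higher (18.8%, against 2.37% of all genes tested) and 1 lower (3.12%, against 1.42%). Their median was 0.17. The exception was Cdkn1b, which encodes the cell cycle inhibitor p27 (-0.44, edgeR adjusted p = 0.0497), a call lost without any 1 of 11 libraries (0.051 to 0.141).

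Genes that make ribosomes were higher where they were called. Of 25 ribosome biogenesis genes 10 were called higher (40.0%, against 2.37% of all genes tested) and none lower, 23 of the 25 lay above 0, and the median was 0.50. Nop56, a core protein of box C/D ribonucleoproteins, stood at 35.5, 36.5, 39.3 and 45.1 CPM uncoated and at 63.8, 62.6, 64.9 and 66.1 CPM on fibronectin (log2 0.72 ± 0.10, edgeR adjusted p = 0.0005). Polr1a, the large subunit of RNA polymerase I, went from 47.9 ± 5.72 to 77.5 ± 3.55 CPM (SD, n = 4), and Nolc1, a nucleolar scaffold, from 40.8 ± 3.69 to 65.6 ± 1.23 CPM. In none of these did the groups overlap. The genes of the ribosome's own proteins changed far less. Of 30 tested edgeR and DESeq2 called 0, and 1 had an unadjusted p under 0.05. The median was 0.05, though 25 of the 30 lay above 0. The E-box CACGTG, the sequence that MYC binds, occurs in 5% of the 20 ribosome biogenesis promoters with an entry, against 8.46% of all promoters.

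ERK pathway feedback genes, which are switched on by ERK and dampen it, showed a median of 0.40. Of 19 tested, 5 were called higher (26.3%) and none lower. Dusp6, the phosphatase of ERK in the cytoplasm, stood at 78.9, 73.4, 81.1 and 90.2 CPM uncoated and 145, 147, 137 and 158 CPM on fibronectin, without overlap (log2 0.86 ± 0.12, edgeR adjusted p = 0.000776). Dusp4, a nuclear phosphatase of ERK, rose from 9.09 ± 1.85 to 22.9 ± 3.42 CPM (SD, n = 4, log2 1.33 ± 0.18). Spry2 and Spred2, inhibitors of RAS and RAF activation, and Etv5, an ETS factor induced by ERK, had log2 changes of 0.83, 0.68 and 0.79. The 5 calls held without each of the 16 libraries. Of 26 immediate early genes 5 were called higher and none lower, with a median of 0.19: Myc, Klf2 (0.72), Fos (0.66), Egr2 (0.64) and Fosl1 (1.37). Egr2 was lost without uncoated library 2 or 3 or fibronectin library 4 (edgeR adjusted p = 0.0551 to 0.0834), and Fosl1 without any 1 of 7 libraries (0.0516 to 0.105).

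Of the Id genes, direct targets of BMP receptors and inhibitors of bHLH transcription factors, Id1 and Id2 were called higher, and Id3 had a log2 change of 0.49 that was not called (edgeR adjusted p = 0.128). Id1 stood at 2.34, 3.39, 4.17 and 5.03 CPM uncoated and 11.7, 8.53, 11.7 and 16.6 CPM on fibronectin (log2 1.70 ± 0.29, edgeR adjusted p = 0.00312). Smad6, an inhibitory SMAD, had a log2 change of 1.32, lost without any 1 of 4 libraries (0.0551 to 0.0879), and Id2 one of 0.63, lost without any 1 of 5 (0.0527 to 0.101). Of 28 BMP, TGF-β and Id genes these were the 3 called, and the median was 0.11. Jag1, a ligand of Notch receptors, was among the genes with the smallest p-values. It stood at 15.8, 15.9, 16.2 and 16.7 CPM uncoated and 45.2, 30.3, 39.7 and 49.8 CPM on fibronectin, a tight group against a wide one without overlap (log2 1.35 ± 0.12, edgeR adjusted p = 2.03e-05).

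Of the glycolysis genes 4 were called, all of them higher. Slc2a1, the glucose transporter GLUT1, stood at 36, 36.9, 35.4 and 40.3 CPM uncoated and 61.2, 70.5, 68.3 and 72.2 CPM on fibronectin (log2 0.87 ± 0.16, edgeR adjusted p = 0.00478). Pfkp, the platelet-type phosphofructokinase, had a log2 change of 0.48. Hk2, hexokinase 2, had one of 0.53, lost without uncoated library 1 or 3 (edgeR adjusted p = 0.0524 to 0.0529), and Ldha, which makes lactate, 0.47, lost without any 1 of 4 libraries (0.0519 to 0.0715). These 4 were of 25 tested, of which 21 lay above 0, and the median was 0.31. Hypoxia-induced genes showed 5 higher (23.8%) and none lower of 21, with a median of 0.10. Ankrd37, a direct target of the hypoxia-inducible factor HIF, went from 2.68 ± 0.71 to 5.46 ± 1.16 CPM (SD, n = 4, log2 1.03), though it overlaps Ufsp2 on the opposite strand, at 61.8 CPM. Egln3, a HIF prolyl hydroxylase that HIF itself induces, had a log2 change of 1.25, lost without uncoated library 2 or fibronectin library 3 or 4 (0.0534 to 0.0729). Of 30 oxidative phosphorylation genes edgeR and DESeq2 called 0 and 1 had an unadjusted p under 0.05, with a median of 0.02.

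The HIF core sequence ACGTG, on either strand, occurs in 56.2% of the 16 hypoxia-list promoters with an entry and in 41.7% of 24 glycolysis promoters, against 21.7% of all 9726. Over the 299 genes called higher with an entry it occurs in 21.1%. The 250 bases before the start are printed for Egln3, the hypoxia gene with the largest called change, and for the 3 called glycolysis genes that hold the sequence there (RefSeq, GRCm38.p6, each on its gene's strand, 5′ to 3′). Pfkp does not hold it in that window. The shown stretches have capitals marking ACGTG or its complement CACGT. They are Egln3 at chr12:54203875-54204124 (minus), Ldha at chr7:46845554-46845803 (plus), Slc2a1 at chr4:119108495-119108744 (plus) and Hk2 at chr6:82774455-82774704 (minus).

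Egln3: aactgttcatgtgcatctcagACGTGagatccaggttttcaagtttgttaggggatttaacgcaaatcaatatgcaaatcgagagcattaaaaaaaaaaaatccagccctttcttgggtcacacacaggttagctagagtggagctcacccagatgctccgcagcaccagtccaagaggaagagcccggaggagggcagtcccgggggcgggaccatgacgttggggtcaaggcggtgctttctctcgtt

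Ldha: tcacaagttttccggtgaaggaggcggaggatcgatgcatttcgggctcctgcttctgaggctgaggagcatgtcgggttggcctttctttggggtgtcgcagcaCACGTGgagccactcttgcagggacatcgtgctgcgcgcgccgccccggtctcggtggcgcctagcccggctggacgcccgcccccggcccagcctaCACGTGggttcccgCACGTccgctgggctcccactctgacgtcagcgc

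Slc2a1: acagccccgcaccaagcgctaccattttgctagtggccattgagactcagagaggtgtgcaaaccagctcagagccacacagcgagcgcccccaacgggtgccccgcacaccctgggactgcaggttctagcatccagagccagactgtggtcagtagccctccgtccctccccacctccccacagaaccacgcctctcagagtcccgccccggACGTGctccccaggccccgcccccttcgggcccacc

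Hk2: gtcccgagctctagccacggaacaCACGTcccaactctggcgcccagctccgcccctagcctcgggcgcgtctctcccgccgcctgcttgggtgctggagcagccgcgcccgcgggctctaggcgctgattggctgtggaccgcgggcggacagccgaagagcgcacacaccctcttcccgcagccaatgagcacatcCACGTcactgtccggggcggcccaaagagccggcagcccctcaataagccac

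The Ldha window also shows CACGTG, which contains the HIF core on both strands and is the E-box counted above.

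Amino acid supply genes of the ATF4 pathway had 4 of 24 called higher (16.7%) and none lower, with a median of 0.27. Slc7a1, the cationic amino acid transporter that brings in arginine, stood at 27.3, 29.2, 26.2 and 37.1 CPM uncoated and 54.2, 58.1, 50.6 and 54.3 CPM on fibronectin (log2 0.86 ± 0.12, edgeR adjusted p = 0.000599). Mthfd2, a mitochondrial enzyme of folate metabolism, and Slc38a2, a neutral amino acid transporter, had log2 changes of 0.60 and 0.42. Arg1, arginase 1, which splits arginine into urea and ornithine, stood at 58.8, 77.6, 96.6 and 107 CPM uncoated and at 219, 224, 220 and 223 CPM on fibronectin. Its fibronectin libraries were closely alike while the uncoated ones spread widely, and the log2 change was 1.38 ± 0.16 (SE, edgeR adjusted p = 0.000133).

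Apart from Arg1, genes of alternative activation and of resident macrophages fell where they were called: 1 higher and 4 lower of 22, with a median of -0.27. Selenop, selenoprotein P, one of the most abundant transcripts here, stood at 2950, 2900, 2640 and 2240 CPM uncoated and 1630, 1340, 1530 and 1510 CPM on fibronectin (log2 -0.84 ± 0.12, edgeR adjusted p = 0.000633). Clec10a, the lectin receptor MGL, fell from 40.1 ± 4.98 to 24.1 ± 3.45 CPM (SD, n = 4). In neither did the groups overlap. Spic, the ETS factor that heme induces in iron-recycling macrophages of the spleen and marrow, stood at 3.65, 3.00, 3.74 and 2.66 CPM uncoated and 0.674, 1.31, 0.971 and 0.732 CPM on fibronectin (log2 -1.81 ± 0.31, edgeR adjusted p = 0.00312). Every fibronectin library was below every uncoated one, at a low level in both groups: mean FPKM was 0.84 and 0.236. Slc40a1, the iron exporter ferroportin, had a log2 change of -0.58, lost without any 1 of 5 libraries (edgeR adjusted p = 0.0517 to 0.0735), and Ncoa4, the receptor that delivers ferritin to lysosomes, -0.78. Hmox1, heme oxygenase 1, which frees iron from heme, moved the other way, from 1070, 1180, 1210 and 1360 CPM uncoated to 1660, 1980, 1860 and 1770 CPM on fibronectin (0.60 ± 0.10, edgeR adjusted p = 0.00324).

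Of 22 Fc receptor and phagocytosis genes 4 were called lower (18.2%) and 1 higher (4.55%), with a median of -0.19. The 1 called higher was Elmo1, an adaptor of engulfment (0.31), lost without any 1 of 6 libraries (edgeR adjusted p = 0.0601 to 0.118). Fcgr2b, the inhibitory receptor for IgG, stood at 310, 283, 281 and 249 CPM uncoated and 189, 177, 187 and 176 CPM on fibronectin (log2 -0.62 ± 0.09, edgeR adjusted p = 0.000541). Mertk, the receptor tyrosine kinase by which macrophages engulf apoptotic cells, stood at 230, 212, 208 and 210 CPM uncoated and 173, 138, 156 and 158 CPM on fibronectin (log2 -0.46 ± 0.08). In both the groups were apart. Entpd1 (CD39), which degrades extracellular ATP, fell from 179, 164, 163 and 162 CPM to 98.0, 86.5, 95.1 and 84.6 CPM (log2 -0.88 ± 0.08, edgeR adjusted p = 2.03e-05). Gpr34, a receptor of lysophosphatidylserine, stood at 18.4, 19.7, 17.7 and 12.0 CPM uncoated and 7.65, 6.2, 6.69 and 8.60 CPM on fibronectin (log2 -1.22 ± 0.26). It was lost without fibronectin library 3 (edgeR adjusted p = 0.0506), and it lies on the X chromosome inside Cask on the opposite strand, whose own change was -0.14 and not called. Cd4, which mouse macrophages transcribe at a low level, was 4.39, 3.86, 3.74 and 3.35 CPM uncoated and 1.55, 1.88, 1.61 and 1.19 CPM on fibronectin (log2 -1.30 ± 0.19, edgeR adjusted p = 0.00101).

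Surface receptors and a transporter outside these families were among the largest rises. Epha2, a receptor of ephrins, stood at 0.623, 1.03, 0.600 and 1.40 CPM uncoated and at 3.57, 3.58, 3.44 and 3.32 CPM on fibronectin (log2 1.91 ± 0.37, edgeR adjusted p = 0.00639). Gpr84, a receptor of medium-chain fatty acids, went from 1.88 ± 0.609 to 5.43 ± 0.676 CPM (SD, n = 4, log2 1.52). Slco4a1, a transporter of organic anions, stood at 1.34, 1.39, 1.24 and 1.10 CPM uncoated and 5.15, 9.90, 5.69 and 5.55 CPM on fibronectin, with library 2 the highest of its group (log2 2.37 ± 0.28, edgeR adjusted p = 0.000142). In all of these the groups were apart, at levels of a few CPM. Fam20a, a pseudokinase of the secretory pathway, had a log2 change of 1.49. At higher levels, Tnfrsf11a, which encodes RANK, the receptor of the osteoclast cytokine RANKL, went from 91.1 ± 4.77 to 128 ± 8.88 CPM (log2 0.49). Pik3cb, a catalytic subunit of PI3 kinase, went from 32.7 ± 0.954 to 50.1 ± 5.79 CPM (log2 0.62). Of 17 osteoclast and fusion genes 3 were called higher and none lower, with a median of 0.11. Of 26 genes of PI3K, AKT and mTOR 2 were called higher and 3 lower, with a median of 0.01.

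Some of the falls with the smallest p-values were in genes with no list here. Tbc1d4, a RAB GTPase-activating protein that holds back glucose transporter vesicles, stood at 81.5, 84.3, 85.6 and 81.9 CPM uncoated and 47.1, 45.6, 49.4 and 49.7 CPM on fibronectin. Both groups were tight and far apart (log2 -0.80 ± 0.09, edgeR adjusted p = 9.07e-05). Nxpe5 stood at 133 to 142 CPM uncoated and 71.9 to 89.7 CPM on fibronectin (log2 -0.81 ± 0.09, edgeR adjusted p = 8.72e-05). Peli2, a ubiquitin ligase of toll-like receptor signalling, went from 51.2 ± 3.45 to 30.5 ± 2.59 CPM (SD, n = 4, log2 -0.75). Of the low transcripts, Slc16a9, a monocarboxylate transporter, had a log2 change of -1.35, Samd4, a binder of mRNA, -1.24, the orphan receptor gene Gprc5c -1.24 and the cathepsin inhibitor gene Ctla2a -1.20. Among the abundant transcripts, Itm2b, a membrane protein of the secretory pathway, fell from 952 to 713 FPKM (means of 4, log2 -0.41), and Serinc3, a membrane protein that HIV Nef counters, from 388 to 249 FPKM (log2 -0.63). Pik3ip1, an inhibitor of PI3 kinase, had a log2 change of -1.14, lost without uncoated library 1 (edgeR adjusted p = 0.0507). Myom1, Gpr162 and Chp2 had log2 changes of -1.11, -1.09 and -1.06, and Myom1 overlaps Myl12a on the opposite strand, at 77.1 CPM. The call of Myom1 was lost without uncoated library 1 or 2 or fibronectin library 3 (edgeR adjusted p = 0.0583 to 0.0872), that of Gpr162 without any 1 of 9 libraries (0.0535 to 0.173) and that of Chp2 without any 1 of 6 (0.0697 to 0.1).

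Receptor and other genes associated with microglia were split, with 2 higher (15.4%) and 3 lower (23.1%) of 13 and a median of -0.08. Of the 3 lower, Csf3r is also a member of the neutrophil list described below. Fcrls, an Fc receptor-like scavenger gene, stood at 236, 242, 238 and 262 CPM uncoated and 156, 181, 169 and 141 CPM on fibronectin, without overlap (log2 -0.60 ± 0.09, edgeR adjusted p = 0.00066). Olfml3, a secreted olfactomedin protein, went the other way, from 2.14 ± 0.505 to 4.67 ± 0.616 CPM (SD, n = 4, log2 1.12), and was lost without uncoated library 1 or 3 (edgeR adjusted p = 0.0536 to 0.0637). Of 18 growth and angiogenic factors 1 was called higher, Angptl2 (0.57), and 1 lower, Pdgfc, a ligand of the PDGF α receptor, which stood at 15.3 to 18.6 CPM uncoated and 9.54 to 10.5 CPM on fibronectin (log2 -0.77 ± 0.13, edgeR adjusted p = 0.00324). Lpin1, the phosphatidate phosphatase of triglyceride synthesis, had a log2 change of -0.55. Among long noncoding genes AC125351.1 had a log2 change of 1.01 and Gm13710 one of -1.35. The call of AC125351.1 was lost without uncoated library 2 or 3 or fibronectin library 2 (0.0544 to 0.0742).

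**Figure D3:**
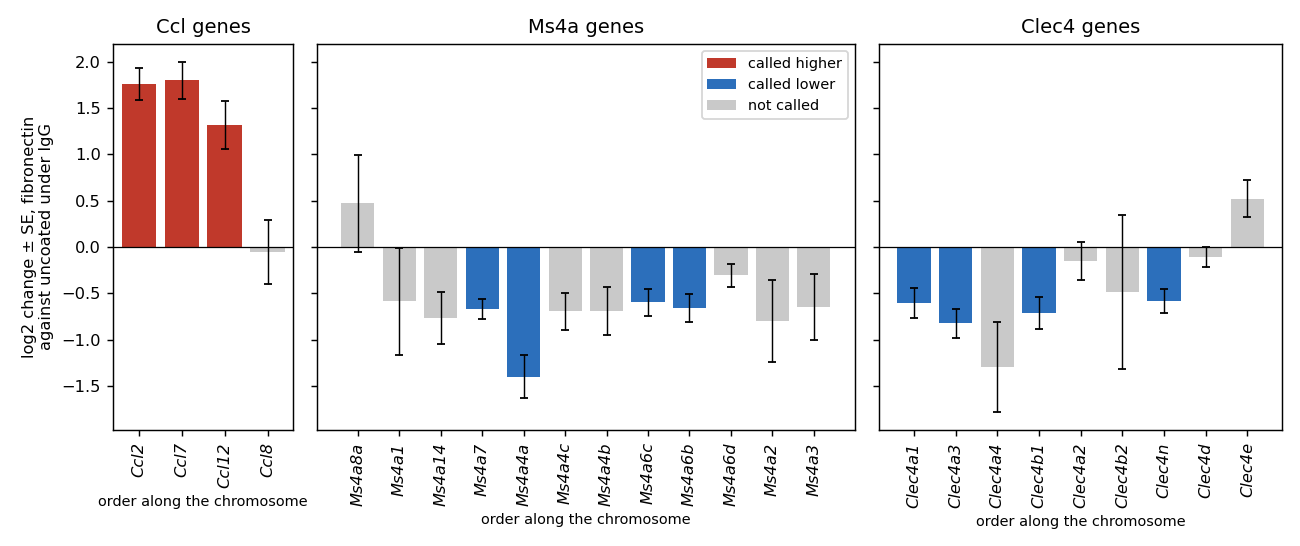
Log2 change (bars) with its SE (whiskers) for each tested gene of 3 clusters in chromosome order, called higher in red, called lower in blue and not called in grey. In the Ccl cluster 3 of 4 genes were called higher, and in the Ms4a and Clec4 clusters 4 of 12 and 4 of 9 were called lower.

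Some called genes were neighbours of one family. In the Ms4a cluster on chromosome 19, which encodes CD20-like membrane proteins, 4 of 12 tested genes were called lower and none higher, with a median of -0.66. Ms4a4a stood at 67.5, 64.0, 56.8 and 42.0 CPM uncoated and 25.0, 15.9, 20.3 and 26.0 CPM on fibronectin (log2 -1.40 ± 0.23, edgeR adjusted p = 0.00227). Ms4a7, a marker of macrophages that persist in tissue, fell from 198 ± 20.3 to 124 ± 7.82 CPM (SD, n = 4, log2 -0.67). Ms4a6c and Ms4a6b had log2 changes of -0.60 and -0.66, each lost without any 1 of 6 libraries (edgeR adjusted p = 0.0517 to 0.102 and 0.0559 to 0.0791). In the Clec4 cluster of C-type lectin receptors on chromosome 6, 4 of 9 were called lower and none higher, with a median of -0.59. Clec4a3 stood at 109, 101, 102 and 79.7 CPM uncoated and 61.3, 49.4, 53.5 and 57.4 CPM on fibronectin (log2 -0.82 ± 0.16, edgeR adjusted p = 0.00649), while Clec4d, the most abundant of the cluster by CPM, had a log2 change of -0.10 and Clec4e, the receptor Mincle, one of 0.52, neither called. Clec4n (-0.59) was lost without fibronectin library 4 (0.0527), and Clec4a1 and Clec4b1 without any 1 of 14 and 6 libraries (0.0538 to 0.158 and 0.0516 to 0.108). Members of both clusters are close copies, and how reads that match several genes were counted is not given, so values of single members are uncertain. Gbp5 and Gbp3, guanylate-binding proteins induced by interferon-γ, had log2 changes of -0.93 and -0.96, and Gbp7 between them one of -1.12 that was not called (edgeR adjusted p = 0.0652). Gbp5 was lost without uncoated library 1 or 2 (0.0554 to 0.0599). The neighbours Frat1 and Frat2 on chromosome 19, which act in WNT signalling, had log2 changes of -0.92 and -0.65. Frat1 was lost without uncoated library 1 or fibronectin library 3 (0.0521 to 0.0611) and Frat2, whose groups overlapped, without any 1 of 12 libraries (0.0529 to 0.16).

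Several lists of markers of other cell types summed to less on fibronectin. The 9 tested mast cell and basophil markers had 3 lower and none higher with a median of -0.85, and took 33.2 to 40.6 CPM in all in uncoated libraries and 18.2 to 22.2 CPM on fibronectin. Their called members were the basophil proteases Prss34 (-0.80) and Mcpt8 (-0.995) and the cytokine gene Il4 (-1.31), while the mast cell tryptase Tpsab1 was at 0 in all 8 libraries. Mcpt8 was lost without any 1 of 5 libraries (edgeR adjusted p = 0.0544 to 0.0748) and Il4 without fibronectin library 3 (0.0574). B lymphocyte markers took 61.1 to 78.8 CPM uncoated and 31.5 to 45.7 CPM on fibronectin, nearly all of it Ighm, which stood at 65.4, 71.7, 63.2 and 57.0 CPM and at 28.2, 41.0, 41.1 and 29.1 CPM (log2 -0.89 ± 0.13, edgeR adjusted p = 0.000805). Neutrophil markers, with Csf3r called lower (-0.73) and none higher of 17, took 517 to 564 CPM uncoated and 398 to 496 CPM on fibronectin. Fibroblast and stromal markers, 2 lower and none higher of 7, took 21.7 to 26.3 and 17 to 20.8 CPM, with Lum at 0 in all 8 libraries. Col3a1 of that list fell from 0.912 ± 0.139 to 0.169 ± 0.143 CPM (SD, n = 4, log2 -2.42), lost without uncoated library 1 or fibronectin library 3 (0.0503 to 0.0601), and Col1a2 had a log2 change of -0.83. The Col1a2 call was lost without uncoated library 1 or 2 or fibronectin library 4 (0.0577 to 0.0686). Endothelial markers took 8.37 to 9.02 CPM uncoated and 12.2 to 13.1 CPM on fibronectin with Cldn5, Emcn and Robo4 at 0, and Kdr had a log2 change of 1.11, lost without uncoated library 1 (0.0588). Megakaryocyte and platelet markers took 568 to 663 CPM uncoated and 421 to 533 CPM on fibronectin. Most of it was Pf4, at a mean of 506 CPM over the 8 libraries. Pf4 was the 1 called of 7 tested, of which 4 lay above 0, with a median of 0.04, and Gp1bb was at 0. The 2 tested T and NK lymphocyte markers were not called, and the list took 0.105 to 0.505 CPM uncoated and 0.507 to 0.732 CPM on fibronectin. Monocyte, erythroid and dendritic cell marker sums overlapped between the groups. Of their 9, 3 and 12 tested members edgeR and DESeq2 called 0, and 4, 1 and 0 had an unadjusted p under 0.05. The part of these cells in the results above was not tested.

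The coating was then read in the 8 libraries with anti-ITGAV, which share no library with the IgG groups, though all 16 share the estimate of spread. There 439 genes were called higher on fibronectin (2.84%) and 437 lower (2.83%), together 876 (5.66%). Of the 367 genes called higher under IgG, 362 were above 0 under anti-ITGAV and 189 (51.5%) were called higher there, with a median of 0.44. Of the 219 called lower, 217 were below 0 and 141 (64.4%) were called lower, with a median of -0.50. In neither direction was a gene called the opposite way. Seen from the other list, 189 is 43.1% of the 439 genes and 141 is 32.3% of the 437.

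Among the genes described above the change under anti-ITGAV was 2.53 for Ch25h, 2.09 for Ccl2, 2.19 for Ccl7, -1.36 for Thbs1 and -1.28 for Spic, each called there as well. Genes called under IgG and not under anti-ITGAV included Dcstamp, the fusion protein of osteoclasts and giant cells, with log2 changes of 1.46 and 0.54, and Klf2 with 0.72 and 0.25. They also included Map1a with 1.63 and 0.74, a gene that overlaps the more abundant Ppip5k1, and Kcnn4, a potassium channel, with 1.17 and 0.62. Gria3 had -1.12 and -0.11 and was itself lost under IgG without any 1 of 6 libraries (edgeR adjusted p = 0.0799 to 0.116). None of these is shown to differ between antibodies. In the test of that difference, the coating by antibody interaction, edgeR called 0 genes (0.0%) and DESeq2 called 1. No adjusted p of edgeR was below 0.646. An unadjusted p under 0.05 was given to 614 genes.

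**Figure D4:**
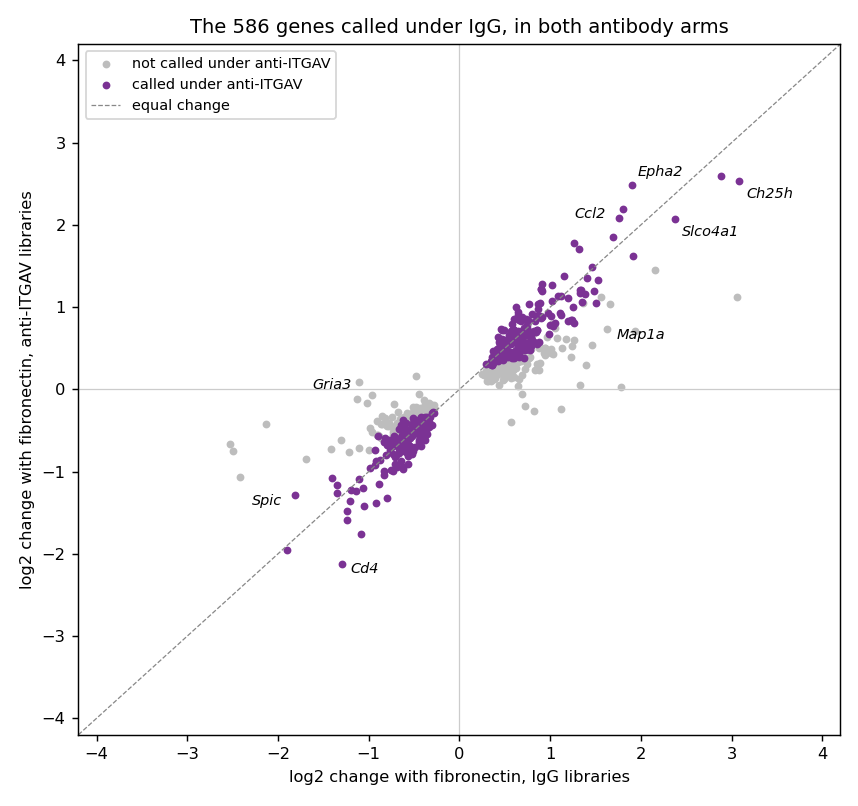
Log2 change with fibronectin in the IgG libraries (x axis) and in the anti-ITGAV libraries (y axis) for the 586 genes called under IgG, purple where also called under anti-ITGAV and grey where not, with a dashed line of equal change. Of the 367 genes called higher under IgG 362 lie above 0 on the y axis, and of the 219 called lower 217 lie below 0.

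The same comparison can be turned round to place single IgG libraries by the genes called under anti-ITGAV. The IgG libraries had a part in those calls through the filter, the scaling and the shared estimate of spread, and with the 8 anti-ITGAV libraries alone 251 genes were called in place of 876. For the 439 genes called higher under anti-ITGAV, the median log2 deviation from the mean of the 8 IgG libraries was -0.27, -0.20, -0.17 and -0.20 in uncoated libraries 1 to 4. It was 0.28, 0.08, 0.19 and 0.34 in fibronectin libraries 1 to 4. For the 437 genes called lower the values were 0.21, 0.15, 0.12 and 0.19 uncoated and -0.25, -0.02, -0.12 and -0.28 on fibronectin. All 8 libraries fell on the side of their label, and fibronectin library 2 lay nearest to the middle. That library also had the lowest Ccl2, Ccl7, Jag1 and Id1 of its group.

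**Figure D5:**
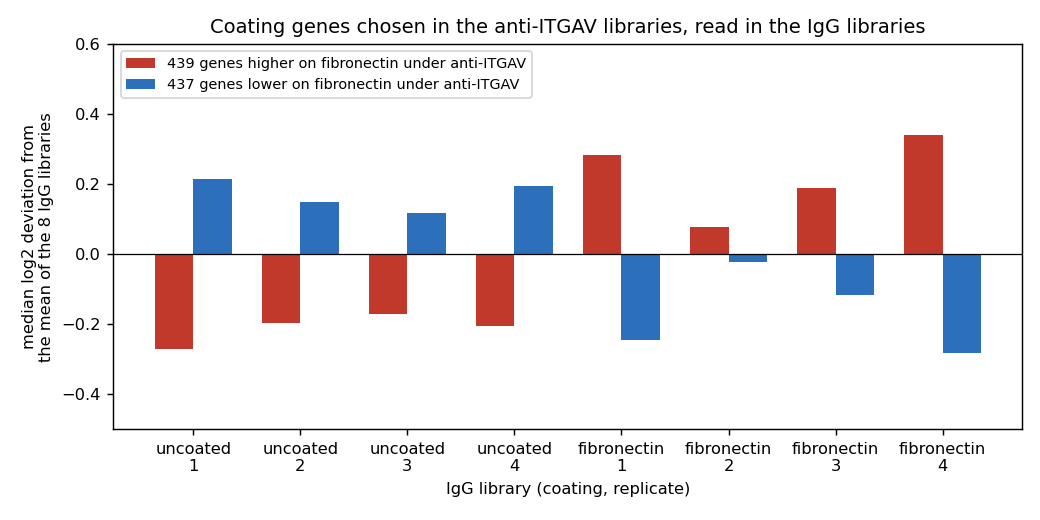
Median log2 deviation from the mean of the 8 IgG libraries, for the 439 genes called higher (red) and the 437 called lower (blue) on fibronectin in the anti-ITGAV libraries. The uncoated libraries have red bars from -0.27 to -0.17, and the fibronectin libraries from 0.08 in library 2 to 0.34 in library 4.

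Fibronectin library 2 also stood at one end of a trend with GC content. Across genes, which are not independent replicates, the deviation of a library from the mean followed the GC content of its transcripts with a Spearman correlation of 0.55 in fibronectin library 2, 0.40 in uncoated library 4 and 0.39 in fibronectin library 3, and of -0.30 to -0.14 in the other 5 IgG libraries. The first principal component of the 8 libraries (30.1% of variance) placed these 3 at the high end. The genes called higher had a median transcript GC content of 51.4% and those called lower 48.1%, against 49.2% over all genes tested. After an offset for the GC trend of each library, 1682 genes were called, among them 360 of the 367 and 216 of the 219. The counts of higher calls per list grew in glycolysis, from 4 to 19 of 25, and also in ribosome biogenesis (10 to 16), cell cycle (6 to 14), ATF4 (4 to 8) and ERK feedback genes (5 to 8). Calls of lower genes also grew, from 0 to 7 of 32 lysosome genes and from 1 to 6 of 22 macrophage identity genes.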

How the data were processed

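RNA was measured in 16 libraries, grouped by the coating and antibody in the labels, and the 8 IgG libraries make the comparison. The authors deposited whole-number counts per gene and FPKM for the same 54532 genes. Per the submitters' processing notes the tools were featureCounts, HISAT2 and StringTie, with GRCm38.p6 and mm10 as builds. Roles, versions and options were not given in the sources used here. Each deposited FPKM equalled the count over gene length and a constant of 0.989 to 1.03 times the library total.

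In R 4.3.3, counts were analysed with edgeR (4.0.16), and limma (3.58.1) served the alternatives. filterByExpr (minimum count 10) kept 15469 genes, and all 16 libraries entered a model of 4 group means with TMM factors and the robust quasi-likelihood method, tested on simulated data first. Replicate pairs differed by more than sampling noise (chi-square over its degrees of freedom 5.25 to 84.2).

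Members and the 58 gene lists (1162 symbols) were chosen with earlier results of these data known, so lists are described by counts and medians only. Named genes are the 15 higher and 15 lower with the largest change (protein-coding, at least 1 CPM, no overlap), the 8 most abundant and the 5 with the smallest p in each direction, the 3 noncoding genes each way, Ch25h, Ccl2, Ccl7, Thbs1, Spic, Fn1 and 5 integrin genes, up to 5 called members of each list and 3 others, runs of neighbours within 100 kb, and 6 genes by interaction p. Others were named after their values were seen: Abcg1, Ccl8, Cdkn1b, Clec4d, Clec4e, Clec4n and Gbp7, and in the closing section Ets2, Bcl6, E2f8, E2f3, Ahr, Prdm1, Arid3a, Arid5a, Arid5b and Kdm5b.

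Alternatives were DESeq2 1.42.0, 3 other scalings, no filter or 1 CPM in 4 libraries, the 8 libraries alone, a fit without robust estimation, voom with quality weights, a test against 1.5-fold, the replicate number as a block, a GC offset, limma on log2(FPKM + 1) or log2(FPKM + 0.1), and leaving out each library.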

Additional observations from a re-analysis of the deposited data

Results flagged for a closer look

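For each named gene, the 4 libraries of each IgG group were checked for a value whose gap to its nearest neighbour, over the whole range of the group, passed Dixon's 95% critical value for 4 samples. Of 298 groups tested 14 were beyond it, and chance alone puts about 1 in 20 groups beyond it. Values below are CPM.

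In fibronectin library 2, Slco4a1, an organic anion transporter, stood at 9.90 against 5.15 to 5.69 in the other 3 libraries, Map1a at 2.42 against 1.48 to 1.59 and Tnf at 11.7 against 10.1 in each of the others, and the long noncoding AC125351.1 at 4.11 against 2.96 to 3.13. Cx3cr1 was lowest there, at 10.2 against 13.6 to 14. In fibronectin library 1, Ccnd1 was lowest, at 388 against 421 to 427.

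In uncoated library 4, Slc40a1 was lowest at 1040 against 1230 to 1260, and Ncoa4 at 173 against 216 to 224. The same library was highest for Emilin2, at 533 against 436 to 452, and for Kcnn4, at 79.8 against 62.4 to 64.3. In uncoated library 1, Entpd1 stood at 179 against 162 to 164 and Pik3ip1 at 4.60 against 2.10 to 2.40. None of these values crossed into the range of the other coating. Clec4d, which was not called, was lowest in uncoated library 1, at 426 against 449 to 450, and highest in fibronectin library 1, at 444 against 400 to 406, so that the groups overlapped.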

How the results depend on the processing

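Of 140 genes named here that were called, no change reversed under any of the 34 other settings, and 93 kept their call without each of the 16 libraries. With DESeq2 1059 genes were called under IgG (633 higher, 426 lower), with voom and quality weights 2481 (1489 and 992), and with limma on log2(FPKM + 1) without a filter 309 (185 and 124). Against a 1.5-fold change 15 were called (14 and 1). In the 8 IgG libraries alone 558 were higher. A GC offset gave 1682 (928 and 754). With the replicate block 360 were called (225 and 135), and with the GC offset and the replicate block 1447 (793 and 654). The correlation of same-numbered libraries' deviations was -0.22 to 0.08, and that of differently numbered ones -0.25 to 0.25. These deviations also carry the GC trend of each library, so whether the numbers mark pairs cannot be told from them. Chosen after seeing the data, a GC offset in the 8 IgG libraries gave 1937 (1065 and 872) and one without the third fibronectin library with anti-ITGAV 2325 (1267 and 1058). Leaving out 1 library gave 253 to 1325 (160 to 867 higher, 91 to 458 lower). Counts under anti-ITGAV (876) were 1601 with DESeq2, 251 in its 8 libraries alone, 2173 with voom, 20 against 1.5-fold, 1918 with the GC offset, 1754 with the replicate block added to it, 510 with limma on log2(FPKM + 1) without a filter, 2039 with the GC offset without the library standing apart, and 428 to 1037 leaving out 1 library. The interaction gave 1 with DESeq2 and 0 leaving out any 1 library. Of genes not called, Itgb1 reversed to 0.064 with voom, 0.028, 0.026, 0.025 and 0.027 with the GC offsets and 0.073 without fibronectin library 2 (-0.101 to 0.073 leaving out 1 library). Itgb5 reversed to -0.007 with voom, -0.030, -0.030, -0.031 and -0.029 with the GC offsets, -0.002 without uncoated library 3 and -0.028 without fibronectin library 2 (-0.028 to 0.093). Ccl8 reversed to 0.069 and 0.029 without uncoated library 3 or 4 and to 0.138 without fibronectin library 1 (-0.248 to 0.138), and Clec4d to 0.021, 0.008, 0.023 and 0.020 with the GC offsets. The cause was not tested. Genes near the filter, such as Ch25h uncoated, rest on few reads, which limits the precision of their fold change.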

Other observations

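Of 875 tested genes that the deposited table annotates as transcription factors, 25 were called higher (2.86%) and 12 lower (1.37%) on fibronectin, shares near those over all genes tested (2.37% and 1.42%). The genes named here were chosen after their values were seen. Ets2, an ETS factor that ERK phosphorylates, stood at 44.0, 50.9, 56.2 and 63.8 CPM uncoated and 115, 125, 132 and 140 CPM on fibronectin, without overlap (log2 1.25 ± 0.14, edgeR adjusted p = 8.72e-05). Bcl6, a repressor of inflammatory genes, stood at 25.2 to 30.7 CPM uncoated and 45.4 to 48.3 CPM on fibronectin (log2 0.78 ± 0.08, edgeR adjusted p = 4.69e-05). Runx3, which supports cytotoxic and dendritic cell programmes, had a log2 change of 1.05. Of the E2F family, which times the genes of DNA replication, 3 of 10 were called higher, E2f2 (0.48), E2f3 (0.41) and E2f8 (0.46). E2f2 and E2f3 were lost without any 1 of 8 and 6 libraries (edgeR adjusted p = 0.051 to 0.132 and 0.0544 to 0.132).

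In the other direction, 4 of 14 ARID family genes were called lower and none higher. Arid3a stood at 64.4, 63.7, 58.5 and 65.4 CPM uncoated and 43.2, 50.3, 49.8 and 42.3 CPM on fibronectin (log2 -0.44 ± 0.08, edgeR adjusted p = 0.0062). Arid5b had a log2 change of -0.57, Arid5a, which stabilizes inflammatory mRNAs, -0.70, and the histone demethylase Kdm5b -0.39; Arid5a and Kdm5b were each lost without any 1 of 4 libraries (0.055 to 0.0706 and 0.0556 to 0.094). Ahr, the aryl hydrocarbon receptor, fell from 11.8 to 18.1 CPM uncoated to 7.52 to 9.54 CPM on fibronectin (log2 -0.85 ± 0.14), and Prdm1, the repressor BLIMP-1, had a log2 change of -0.65. Under anti-ITGAV the changes of these genes had the same sign, from 1.00 for Ets2 to -0.80 for Arid5a.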
